A study of Mus musculus with 3 samples.

Results

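The genes described here are the negative-feedback phosphatases of the mitogen-activated protein (MAP) kinases and the transcription factors that share their control: the dual-specificity phosphatase genes Dusp1, Dusp2, Dusp4, Dusp5 and Dusp6, the Sprouty genes Spry1, Spry2 and Spry4, and the ETS factor genes Etv4 and Etv5. A gene was taken as measured where a probe carried its symbol, current or older, and 7 of the 10 genes were measured this way, by 1 probe each, of 17742 genes in all. No probe with a Sprouty symbol was analysed here, so the account covers 5 phosphatase and 2 ETS genes. The arrays measured transcripts in cultured mouse myeloid leukaemia cells from bone marrow of the BXH-2 strain, which is prone to myeloid leukaemia. The resistant group is 1 array of B117HS, which was selected out of B117P in increasing cytarabine (Ara-C) over about 10 weeks and had an IC50 for the drug about 10 times that of its parent. The sensitive group is 2 arrays, replicates 1 and 2, of the parental line B117P. Cytarabine is a deoxycytidine analogue used against acute leukaemia. Each group is a single cell line, so the comparison is between 1 derived line and its parent. The labels do not say whether the drug was present at harvest, nor that separate cultures lay behind the sensitive arrays, so the spread behind each p-value is that of the arrays and may be technical.

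In the extracellular signal-regulated kinase (ERK) pathway, growth factor receptors act through Ras and the Raf and MEK kinases on ERK, which enters the nucleus and switches on early genes. Several of those genes encode brakes: dual-specificity phosphatases remove the activating phosphates from MAP kinases, and Sprouty proteins act further up, between receptor and Raf. Etv4 and Etv5, of the PEA3 branch of the ETS family, are induced by the same signal and carry it on to further genes. In blood cells these transcripts are widely read as markers of recent MAP kinase signalling.

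The resistant array was dimmer than the sensitive arrays, so the values of the 7 measured genes are given both as deposited and after scaling, and those of other genes as deposited unless the text says scaled. Median intensity was 24.9 units on the resistant array, against 58.4 and 72.5 on sensitive replicates 1 and 2. Over 6167 probes averaging at least 500 units, the median log2 ratio of the resistant array to the sensitive mean was -0.77. Scaling each array to a ratio of 0 on these bright probes moved the median log2 difference of all genes to -0.06, from -0.33 as deposited. Differences are of log2(intensity + 50), resistant minus sensitive, a scale that understates changes of dim genes. A call in limma needed an adjusted p (Benjamini-Hochberg, over all genes) under 0.05 and, against replicate 1 and replicate 2 alike, a log2 difference of 1 or more the same way. Only genes called both as deposited and after scaling are said to have risen or fallen. The spread of the single resistant array was taken to be that of the sensitive pair, and the number of arrays limits the precision.

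Myeloid identity was checked on 10 measured markers of 12, of which 1 was called higher and 2 lower on the deposited scale, and 2 higher and 1 lower after scaling. Of all genes, 5.23% were called higher and 18.5% lower as deposited, and 9.86% and 8.45% after scaling. The granule enzyme gene Mpo read 80905 units in resistant cells, against 76710 and 84138 in sensitive cells, and the leukocyte surface gene Ptprc read 6725 against 8096 and 8219. The myeloid transcription factor gene Spi1 fell to 109 units in resistant cells, against 634 and 591 in sensitive cells. Elane, the neutrophil elastase gene, rose to 11153 units in resistant cells, against 272 and 349.5 units in sensitive cells. Itgam, the integrin gene of CD11b, was called lower as deposited only, with 443 units in resistant cells, against 1318 and 2389 units in sensitive cells. Of 36 markers of T, B, erythroid, megakaryocyte, stromal, epithelial and endothelial cells, 33 were measured, and 4 of these read at most 10 units on all arrays. Their summed intensity was 3810 units in resistant cells, against 6464 and 6962 in sensitive cells. Of the 33, 2 rose and 3 fell, where 925 rose and 1482 fell of all 17742 genes. Vpreb1, a pre-B-cell receptor gene and the brightest of the 33 in sensitive cells, fell to 400 units against 3363 and 3646 units. Cd79b, a B-cell receptor gene, fell to 21.8 units against 970.3 and 1049 units. Of 4 endothelial markers, Kdr, a receptor gene, rose to 1165 units against 171 and 200.5 units. Pecam1 was called higher after scaling only, and Cdh5 and Tek read below both sensitive arrays without a call. The part of these markers in the results below was not tested.

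Among the measured genes, Dusp2 and Etv5 fell in the resistant cells and Dusp6 was called lower as deposited. The remaining phosphatases went different ways: Dusp1 and Dusp4 were not called on either scale, and Dusp5, dim in sensitive cells, was called higher after scaling. Etv4, the close relative of Etv5, was not called. As deposited, 3 of 7 genes were called lower where 18.5% of all genes were, and 0 were called higher where 5.23% of all genes were. After scaling, 2 of 7 were called lower and 1 higher, against 8.45% and 9.86% of all genes. The resistant array lay below both sensitive arrays for 5 of 7 genes as deposited, against 68.4% of all genes, and above both for 1, against 20.8%. After scaling it lay below both for 4 of 7 genes, against 47.3% of all genes, and above both for 2, against 40.3%. The median log2 difference of the 7 genes was -0.90 as deposited and -0.35 after scaling, beside -0.33 and -0.06 over all genes.

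**Figure D1:**
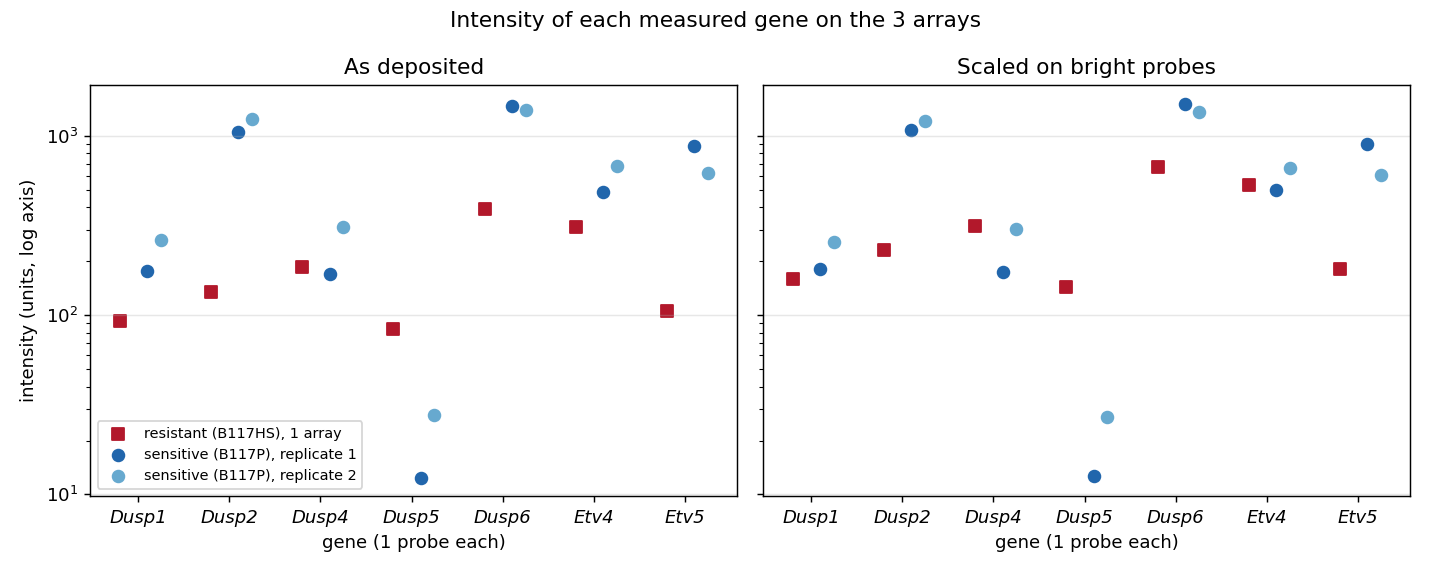
Intensity (units, log axis) of the 7 measured genes on the resistant array (red squares, B117HS) and on sensitive replicates 1 and 2 (dark and light blue circles, B117P), as deposited (left) and scaled on bright probes (right). For Dusp2, Dusp6 and Etv5 the resistant square sits below both circles in both panels, for Dusp5 it sits above both, and for Dusp4 it lies between them as deposited.

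Start-site sequences are shown for the 5 measured genes with a window in the RefSeq promoter table, to set Dusp2, Dusp6 and Etv5, the genes called lower as deposited, beside Dusp5, called higher after scaling, and Dusp1, not called on either scale. Each is the 250 bases before the gene's start on its own strand, 5′ to 3′, in GRCm38.p6. The Dusp2 window is chr2:127335909-127336158 on the plus strand and that of Dusp6 is chr10:99262981-99263230 on the plus strand. The Etv5 window, before the outer of its starts in the table, is chr16:22439571-22439820 on the minus strand. The Dusp5 window is chr19:53528895-53529144 on the plus strand and that of Dusp1 is chr17:26508473-26508722 on the minus strand. Capitals mark, on either strand, the ETS motif CCGGAA, the cyclic AMP response half-site TGACG and the E-box CACGTG. They also mark the CArG box, the site of serum response factor.
Dusp2: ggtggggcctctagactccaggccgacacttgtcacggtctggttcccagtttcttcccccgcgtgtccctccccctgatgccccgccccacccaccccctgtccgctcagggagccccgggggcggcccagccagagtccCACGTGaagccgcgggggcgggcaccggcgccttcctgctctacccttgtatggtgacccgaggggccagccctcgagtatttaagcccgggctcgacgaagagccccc
Dusp6: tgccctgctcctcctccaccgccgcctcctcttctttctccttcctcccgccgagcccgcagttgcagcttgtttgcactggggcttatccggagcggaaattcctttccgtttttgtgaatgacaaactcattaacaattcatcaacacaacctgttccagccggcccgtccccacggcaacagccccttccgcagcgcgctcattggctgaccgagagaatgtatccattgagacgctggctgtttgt
Etv5: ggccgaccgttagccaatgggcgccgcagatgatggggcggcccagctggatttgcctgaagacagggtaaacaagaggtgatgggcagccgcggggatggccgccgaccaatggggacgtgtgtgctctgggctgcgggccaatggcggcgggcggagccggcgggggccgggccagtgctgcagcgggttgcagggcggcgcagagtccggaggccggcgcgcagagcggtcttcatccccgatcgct
Dusp5: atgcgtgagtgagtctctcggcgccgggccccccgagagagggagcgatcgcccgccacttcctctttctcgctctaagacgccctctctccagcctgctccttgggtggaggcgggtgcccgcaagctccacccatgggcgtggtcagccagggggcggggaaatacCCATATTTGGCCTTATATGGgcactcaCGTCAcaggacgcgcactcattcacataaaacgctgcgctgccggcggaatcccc
Dusp1: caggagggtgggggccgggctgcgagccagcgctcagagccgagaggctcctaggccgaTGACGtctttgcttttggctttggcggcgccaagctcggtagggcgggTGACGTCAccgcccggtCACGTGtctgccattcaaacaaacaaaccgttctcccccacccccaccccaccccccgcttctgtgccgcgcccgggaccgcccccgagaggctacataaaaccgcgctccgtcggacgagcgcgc

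The window of Dusp5 held a pair of adjoining CArG boxes, starting 82 and 72 bases before the start, and 1.47% of 32851 windows of the same length held at least 1. It also held TGACG 55 bases before the start, a half-site found in 17.8% of windows. In Dusp1 the full palindrome TGACGTCA, which contains the half-site on both strands, began 143 bases before the start, and 1.55% of all windows held it. Another TGACG lay 191 bases before the Dusp1 start. CACGTG was in the windows of Dusp1 and Dusp2, 126 and 109 bases before their starts, and in 6.02% of all windows. The ETS motif CCGGAA, in 12% of all windows, was in 0 of these 5. Shorter forms of the ETS site, such as GGAA, were not searched for. The AP-1 site TGANTCA, in 6.75% of all windows, was in 0 of the 5 as well. The windows of Dusp6 and Etv5 held none of the marked motifs. The GC-box core GGGCGG, not marked, was in 4 of the 5 windows, all but that of Dusp6, and in 32.7% of all windows. These 5 windows were 56.4% (Dusp6) to 71.2% (Etv5) G and C, where the median of all windows was 52.4%. The window before the inner Etv5 start, not shown, held no GGGCGG and was 62.0% G and C. The part of base content in the matches was not tested. These are matches of letters and describe no binding.

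Dusp6 encodes a cytoplasmic phosphatase selective for ERK. Its probe read 392 units in resistant cells, against 1481 and 1393 units in sensitive cells (mean 1437 ± 62.3, SD, n = 2). The resistant array was well below both sensitive arrays, which lay close together, at 0.2728 times their mean. The log2 difference was -1.75 (SE 0.22, limma adjusted p = 5.23e-05), and 7.12% of all genes had a lower one. Scaling brought the resistant value to 669 units, against 1518 and 1359 units. The scaled log2 difference of Dusp6 was -1.05 (SE 0.17, limma adjusted p = 0.0293), with -1.13 from replicate 1 and -0.97 from replicate 2, so the size asked was met against only one of the sensitive arrays. Its values lay below both sensitive arrays on either scale.

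Dusp2, also called PAC-1, encodes a nuclear phosphatase found mainly in blood cells, where it is an early response gene. It had 135 units in resistant cells, against 1059.8 and 1244 units in sensitive cells (1152 ± 130.2, SD, n = 2). This was the largest fall among the 7 genes on both scales. The resistant value was 0.1175 times the sensitive mean, and the log2 difference was -2.69 (SE 0.24, limma adjusted p = 3.57e-06). Only 2.09% of all genes had a lower difference. After scaling, Dusp2 read 231 units in resistant cells, against 1087 and 1214 units in sensitive cells. The scaled log2 difference of -2.09 (SE 0.18, adjusted p = 0.0116) was still past the call. The E-box in its window is a description of that sequence and was not tied to this difference.

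Dusp1, or MKP-1, encodes a nuclear phosphatase that acts on p38 and JNK as well as ERK and is induced by stress and growth factors. It read 93.3 units in resistant cells, against 178 and 264 units in sensitive cells (221 ± 60.9, SD, n = 2). The resistant array was lowest, and in units the gap to replicate 1 was about as wide as the gap between the sensitive arrays. On the log2 scale these gaps were 0.67 and 0.46. The log2 difference was -0.90 (SE 0.31), with a limma adjusted p of 0.0328 that passed while the size of -0.67 from replicate 1 did not. After scaling Dusp1 read 159 units, against 182 and 257 units in sensitive cells. The scaled difference of -0.35 (SE 0.27, limma adjusted p = 0.379) was not called. As deposited, 25.14% of all genes had a lower difference.

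Dusp4, or MKP-2, encodes another nuclear phosphatase of ERK and JNK. Its probe had 185 units in resistant cells, against 170.2 and 311 units in sensitive cells (241 ± 99.8, SD, n = 2). The groups overlapped, since the resistant array lay between the sensitive arrays. Dusp4 also had the widest gap of the 7 genes between the sensitive arrays, 0.71 on the log2 scale with replicate 2 higher. Its log2 difference was -0.26 (SE 0.34, adjusted p = 0.547 in limma) as deposited and turned to 0.38 (SE 0.36, adjusted p = 0.465) after scaling, where it read 316 units, against 175 and 304 units. No direction was settled for Dusp4.

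Dusp5 encodes a nuclear phosphatase that binds and dephosphorylates ERK alone among the MAP kinases, and is known as a target of serum response factor. It read 84.0 units in resistant cells, against 12.4 and 27.7 units in sensitive cells (20.1 ± 10.8, SD, n = 2). It was the only one of the 7 genes for which the resistant array lay above both sensitive arrays as deposited. Its probe was dim in sensitive cells, below the median intensity of both sensitive arrays. Its log2 difference was 0.94 (SE 0.22, limma adjusted p = 0.00418), which passed on p and reached 1.10 from replicate 1 and 0.79 from replicate 2, short of the size asked. After scaling Dusp5 had 143 units in resistant cells, against 12.7 and 27.0 units in sensitive cells. The scaled difference was 1.48 (SE 0.20, adjusted p = 0.0213 in limma) and was called higher. On the deposited scale 93.88% of all genes had a lower difference. Its window was the one with the CArG boxes, and their part in the Dusp5 difference was not tested.

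Etv5, also known as ERM, and Etv4, also known as PEA3, are close relatives that bind ETS sites. Etv5 read 106 units in resistant cells, against 886 and 621 units in sensitive cells (754 ± 187, SD, n = 2). The resistant array was far below both, at 0.1404 times their mean. Its log2 difference was -2.35 (SE 0.28, limma adjusted p = 3.22e-05), with 3.13% of all genes lower. Scaled values of Etv5 were 181 units in resistant cells, against 908 and 606 units in sensitive cells, a log2 difference of -1.78 (SE 0.31, adjusted p = 0.0310 in limma). Etv5 and Dusp6 were the 2 genes of the 7 that were higher on replicate 1 than on replicate 2 of the sensitive cells.

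Etv4 read 311 units in resistant cells, against 490 and 685 units in sensitive cells (587 ± 138, SD, n = 2). The resistant array was below both, by 0.58 from replicate 1 and 1.02 from replicate 2 on the log2 scale. The log2 difference of -0.80 (SE 0.27, adjusted p = 0.0272 in limma) passed on p and missed the size asked. After scaling Etv4 read 531 units in resistant cells, between the 502 and 668 units of sensitive cells, and the difference was -0.12 (SE 0.25, adjusted p = 0.743). The difference between Etv5 and Etv4 in their response was not tested.

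**Figure D2:**
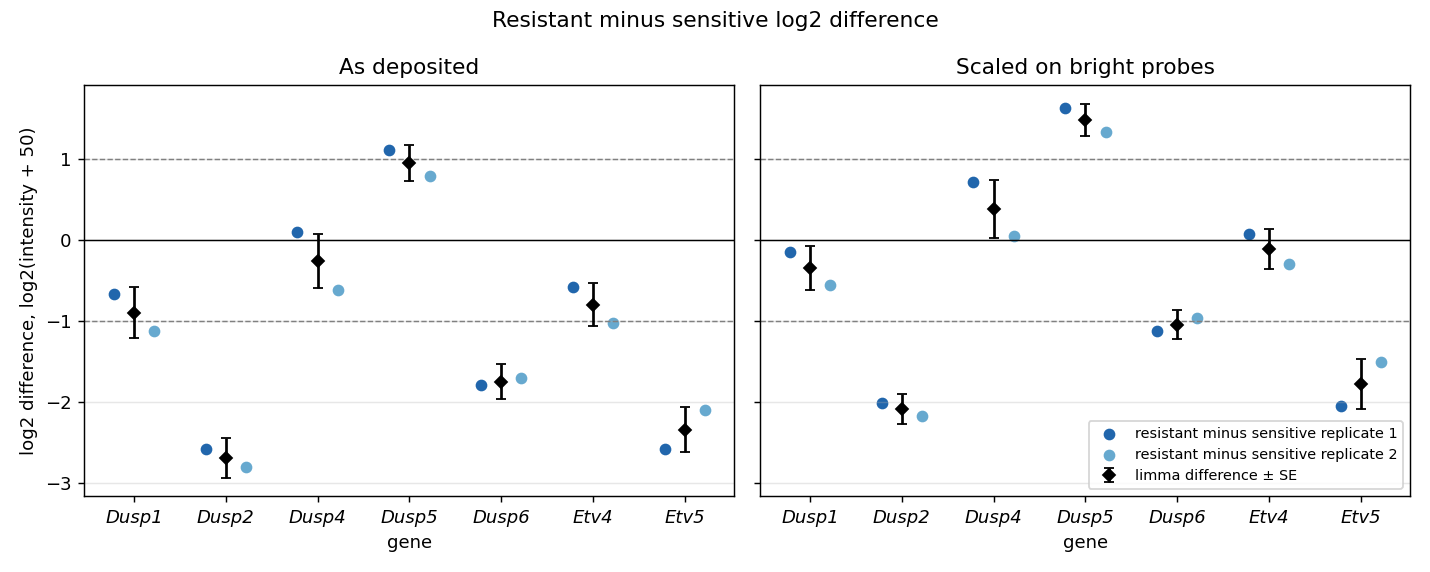
Log2 difference of log2(intensity + 50), resistant minus sensitive, for the 7 genes as deposited (left) and scaled on bright probes (right). Diamonds with bars are the limma difference ± SE, circles the difference from each sensitive replicate, and dashed lines the size of 1 asked in either direction. Dusp2 and Etv5 lie beyond -1 in both panels, Dusp6 straddles -1 after scaling, and Dusp5 lies beyond 1 after scaling.

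The 7 genes did not move as one group. Their log2 differences spanned 3.64, from Dusp2 to Dusp5, as deposited, and 3.57 after scaling, so scaling moved them together and left their order the same. Between the sensitive arrays 5 of 7 genes were higher on replicate 2, as were 65.0% of all genes, and no member reached a log2 difference of 1 between those arrays, as 152 genes, 0.857% of all, did. Relative to the median of all genes as deposited, Dusp2 differed by -2.36, Etv5 by -2.02 and Dusp6 by -1.42. By the same measure Dusp1 was at -0.57, Etv4 at -0.47, Dusp4 at 0.07 and Dusp5 at 1.27. The phosphatases selective for ERK, Dusp5 and Dusp6, thus lay on opposite sides of the median of all genes.

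**Figure D3:**
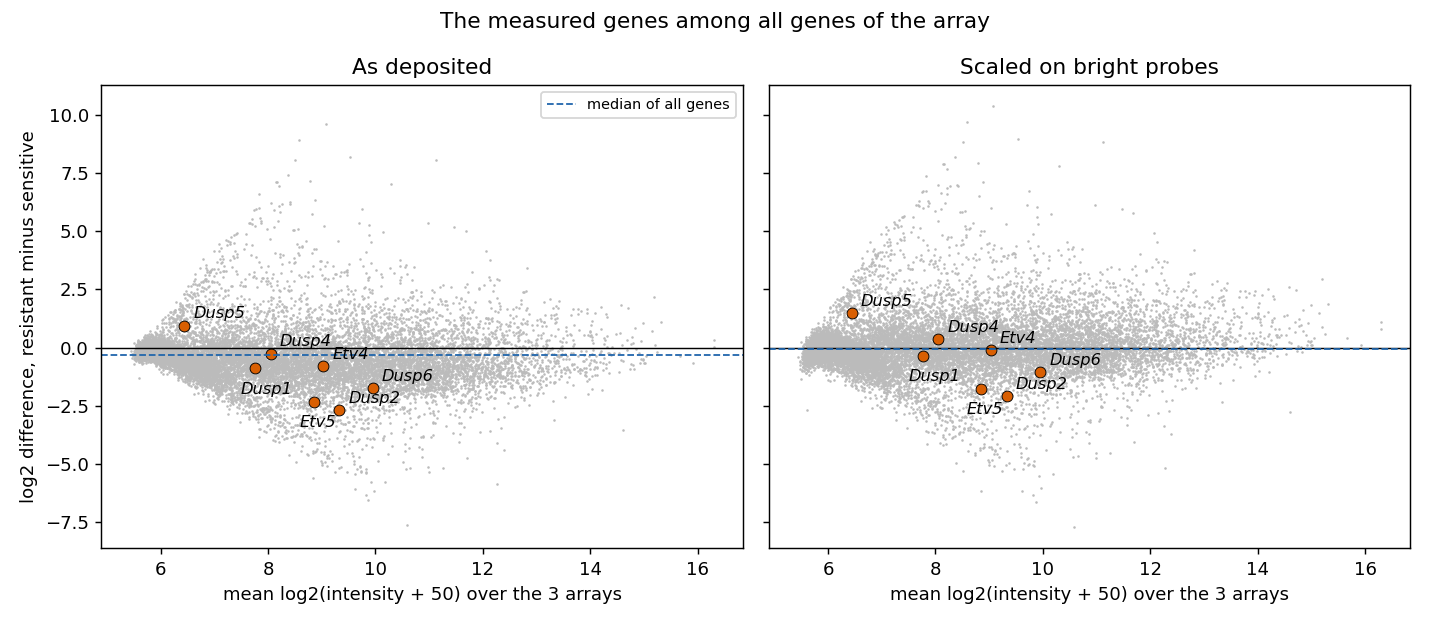
Log2 difference (resistant minus sensitive) against mean log2(intensity + 50) over the 3 arrays for all 17742 genes (grey points), with the 7 measured genes in orange and the median of all genes as a dashed line, as deposited (left, median -0.33) and scaled on bright probes (right, median -0.06). Dusp2 and Etv5 lie among the lower points at their brightness. Dusp4 lies near the median as deposited and Etv4 after scaling.

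Other genes of the pathway were counted from lists, beside 5.23% of all genes called higher and 18.5% lower as deposited, and 9.86% and 8.45% after scaling. Of 16 further dual-specificity phosphatase genes, all measured, the deposited scale gave 1 call higher and 6 lower, and scaling gave 2 higher and 4 lower, with medians of -0.45 and -0.13. Dusp19, which encodes a scaffold-like phosphatase of the JNK pathway, rose to 594 units in resistant cells, against 50.9 and 55.4 units in sensitive cells (log2 difference 2.64, limma adjusted p = 2.03e-05). Dusp22, another JNK pathway regulator, fell by 2.64 with 20.2 units in resistant cells, against 354 and 425 units, and its other probe read 14.0 against 183 and 199 units. Dusp9, an ERK-selective phosphatase gene like Dusp6, fell to 4.67 units, against 181 and 207 units, on a probe near 0 where no flag for a failed spot was used. Dusp16, a JNK and p38 phosphatase gene, had a call on the deposited scale alone (-1.89, against -1.22 scaled). The other probe of Dusp16 read 93.3 units in resistant cells, against 863 and 1175 units in sensitive cells, a wider gap. Dusp12 fell by 2.14. Dusp11, an RNA phosphatase gene, differed by 0.31 as deposited and 1.07 scaled, and Dusp10, a JNK and p38 phosphatase gene, by -0.29 and 0.23 scaled, both without a call.

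Among Spred and other feedback regulators 11 of 12 were measured, 0 were called higher and 1 lower on each scale, with medians of -0.65 and -0.24. That gene was Spred3, of the Sprouty-related family, which fell to 18.7 units in resistant cells, against 116.8 and 153 units in sensitive cells. Spred1, a relative that inhibits Ras and Raf signalling, read 375 against 779 and 890 units, a log2 difference of -1.06 that missed the size from replicate 1, and -0.36 after scaling. Cbl, a ubiquitin ligase gene that ends receptor signalling, differed by -0.47 as deposited and 0.29 scaled, without a call.

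In the ERK cascade itself 18 of 21 genes were measured, with 0 higher and 7 lower as deposited and 2 higher and 3 lower after scaling. Grb2, the adaptor that links receptors to Ras, fell to 1304 units in resistant cells, against 5879 and 6314 units in sensitive cells (log2 difference -2.18). Gab2 and Sos1, a docking protein and an exchange factor gene, fell with -9.33 and 1.56 units in resistant cells, probes near 0. The other probe of Gab2 read 32.7 units in resistant cells, against 90.7 and 124 units in sensitive cells, a smaller gap. Sos2, also an exchange factor gene, read 737 units against 398 and 385 units and was called higher after scaling only. Nras, a Ras gene, was called on the deposited scale alone (-1.32, against -0.61 scaled), and Araf, a Raf kinase gene, was called higher after scaling only (0.62 as deposited and 1.37). No measured Raf, MEK or ERK gene was called lower on either scale. The list median was -0.75 as deposited and -0.20 after scaling.

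Among 15 measured of 16 further ERK output genes, the deposited scale gave 1 call higher and 3 lower, and scaling gave 3 higher and 2 lower. Egr1, an early transcription factor gene, rose to 1696 units in resistant cells, against 90.7 and 277 units in sensitive cells (log2 difference 3.02, SE 0.40, limma adjusted p = 7.09e-05). The sensitive arrays themselves differed by 1.22 for Egr1 on the log2 scale, with replicate 2 higher. Ccnd1, the cyclin D1 gene, fell by 3.38 on the log2 scale. Epha2, a receptor gene, fell to 24.9 units in resistant cells, against 306 and 583 units in sensitive cells. Fos read 1389 units, against 478 and 780 units, and was called higher after scaling only (1.12 as deposited and 1.87). Ier2 and Junb, also early genes, had no call, with -0.40 and -0.975 as deposited and 0.36 and -0.27 after scaling. The other probe of Ier2 read 888 units in resistant cells, against 277 and 749 units in sensitive cells. That of Junb read 233 units, against 157 and 574 units. Egr1 and Fos thus differed upward while Dusp6 and Etv5 differed downward on the same arrays, but the early genes did not all move one way. The list median was -0.40 as deposited and 0.18 after scaling.

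Of 15 JNK and p38 cascade kinase genes, all measured, 0 were called higher and 3 lower as deposited, and 1 higher and 3 lower after scaling. Map3k7, which encodes the kinase TAK1, fell by 2.76, Mapk11, a p38 kinase gene, by 1.87 and Map3k5, a stress kinase gene, by 1.56. Mapk14, the main p38 kinase gene, differed by -0.40 as deposited and 0.36 scaled, without a call. Of 18 other ETS genes, all measured, 0 were called higher and 6 lower as deposited, and 1 higher and 3 lower after scaling, with medians of -0.58 and -0.30. Ets2, an ERK-activated ETS factor gene, fell to 219 units in resistant cells, against 1117 and 1811 units, and Elf2 fell by 1.89. Etv6 was called on the deposited scale alone (-1.75, against -1.01 scaled, where the size was missed from one array), and Gabpa differed by 0.14 as deposited and 0.86 scaled, without a call.

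**Figure D4:**
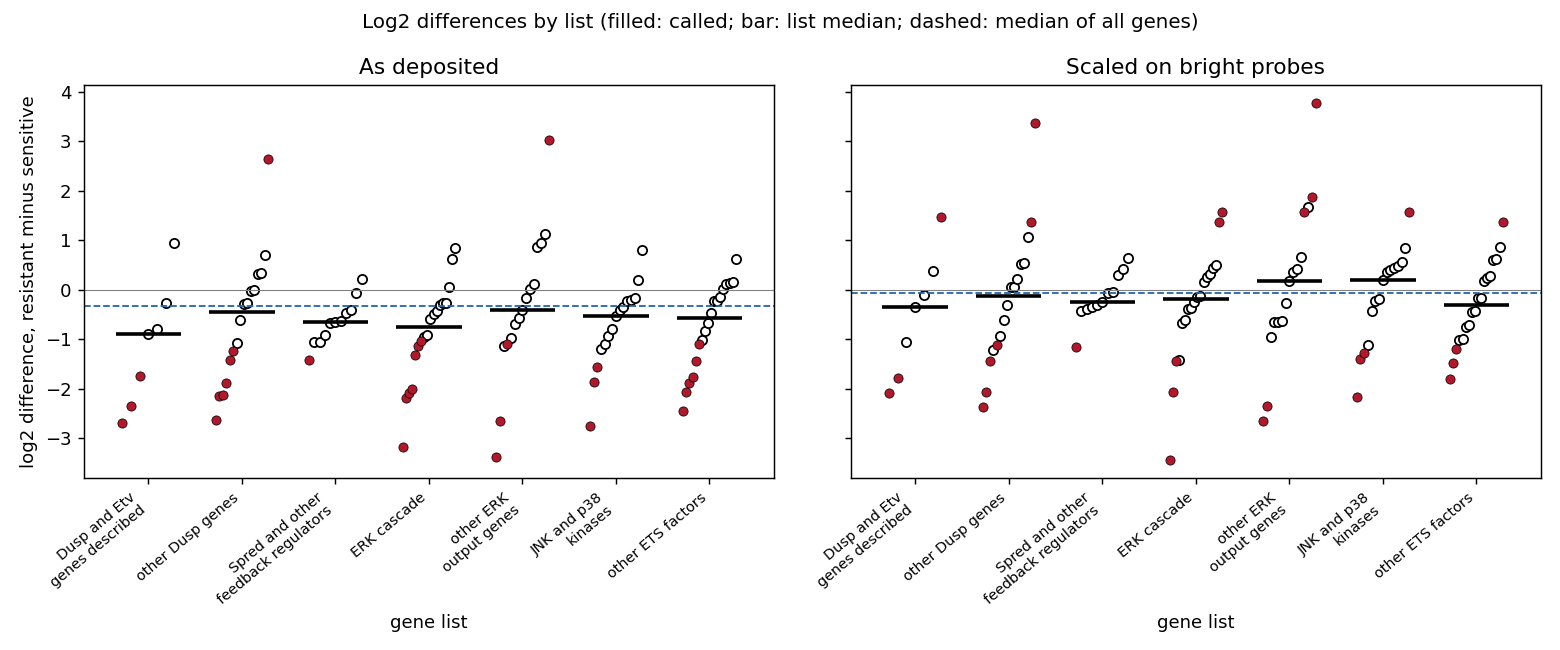
Log2 differences, resistant minus sensitive, of the 7 measured genes and of 6 lists of pathway genes, as deposited (left) and scaled on bright probes (right). Each point is a gene, filled where called, bars are list medians and the dashed line is the median of all genes. The median of the 7 genes is -0.90 as deposited and -0.35 after scaling, and called genes of both directions appear in the list of other ERK output genes in both panels.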

How the data were processed

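RNA of 3 samples was labelled with Cy5 and hybridised to arrays of 1 colour, per the labels' protocols. The authors deposited an intensity for each probe on each array, on a linear scale reaching -23.3, so a background had been subtracted. The scanner, image software and normalization are not given in the labels, and no flags were used. Of 26423 probes, 20377 carried 1 symbol in the platform's table, 0 several and 6046 none. Among symbols, 18213 were current mouse names, 2126 older ones and 38 neither (RefSeq, GRCm38.p6, used for names and start-site windows). The brightest probe by mean stood for each gene. 

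Groups came from the sample titles. limma 3.58.1 in R 4.3.3 (lmFit, eBayes with a trend) was fitted to log2(intensity + 50) of 17742 genes, with 1 residual degree of freedom and a prior of 10.98. All 4212 genes of the size asked also passed the adjusted p. The genes described, the lists and the offset were chosen with earlier results of these data known. From each list the rule named the called genes, at most 5 by size, and up to 3 uncalled ones of highest mean, not all of which are printed. Cell type markers, second probes and Sos2 were named outside the rule. The fit was tested on simulated data with the levels and spread of the sensitive pair and without the dimness of the resistant array. Summaries used Python 3.11.15 (numpy 2.4.6, pandas 2.3.3) and plots matplotlib 3.10.9. Alternatives were other scalings, offsets of 16 and 100, a floor of 50, the mean of a gene's probes, leaving out the dimmest 25% of genes, other variance models, a size of 2 and leaving out each sensitive array.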

Additional observations from a re-analysis of the deposited data

How the results depend on the processing

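No paired analysis was possible because the resistant group is 1 array and carries no replicate number in the labels. As deposited 928 genes were called higher and 3284 lower. Counts of genes called higher were 1749 after scaling on bright probes, 1697 after centring on array medians, 133 with a floor of 50 and 354 with a size of 2. Counts called lower were 1500 after that scaling, 1219 after quantile normalization, 1273 after centring, 26 with the floor and 734 with a size of 2. Higher genes made up 22% of the called genes on the deposited scale, 53.8% after scaling, 52.3% after quantile normalization and 57.1% after centring. With the floor, 6335 genes sat at it on both sensitive arrays, with no spread between them.

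Of the 7 genes, 3 were called lower as deposited, 0 with the floor, and 2 with a size of 2 (Dusp2 and Etv5). Called higher were 0 as deposited and 1, Dusp5, after scaling (log2 difference 1.48), quantile normalization (1.36), centring (1.57) and with an offset of 16 (1.51). Leaving out 1 sensitive array leaves no residual degree of freedom, so calls then rest on size alone. Without sensitive replicate 1 the counts were 0 higher and 5 lower, with Dusp1 (-1.13) and Etv4 (-1.02) added. Without replicate 2 they were 1 higher, Dusp5 (1.10), and 3 lower. Over all genes these 2 settings gave 976 to 1108 higher and 3625 to 4288 lower. Dusp2 kept its call in all settings but the floor (adjusted p = 0.0684), with log2 differences from -3.08 with the floor to -2.07 after centring. Etv5 lost its call after quantile normalization (adjusted p = 0.0651) and with the floor (0.103). Dusp6 lost its call after scaling (-1.05), centring (-1.13) and with the floor (adjusted p = 0.0639). Dusp4 changed sign after scaling (0.38), quantile normalization (0.33), centring (0.36) and without sensitive replicate 2 (0.094; -0.62 without replicate 1). The cause of these changes was not tested, and intensities near background limit what can be said of Dusp5.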
